A study of Mus musculus with 30 samples.

Results

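Tendon and cartilage-like matrix genes were followed in extensor digitorum longus (EDL) muscle through 10 genes chosen by name, all of which were found among the 21073 genes of the table: the transcription factors SCX and MKX, the membrane protein TNMD, the small leucine-rich proteins FMOD, KERA and CHAD, the pentameric glycoproteins COMP and THBS4, and the cartilage intermediate layer proteins CILP and CILP2. EDL was taken from female SJL/J mice, with 5 mice in each of 6 groups. Unimmunized (Ctrl) mice received no antigen, OVA-immunized mice received ovalbumin (OVA) in complete Freund's adjuvant (CFA), and EAE-induced mice received the myelin peptide [Ser140]-PLP139-151 in CFA, which causes experimental autoimmune encephalomyelitis (EAE), an inflammatory disease of the central nervous system. Each group was sampled on day 14, at the peak of disease, and on day 40, in the second remission, from different mice. Pertussis toxin was not injected, and the mice developed mild disability, so the EAE groups represent a mild relapsing model. The labels do not tie replicate numbers to cages or to collection days.

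Tendon is built of parallel type I collagen fibrils whose width and spacing are set by small leucine-rich proteoglycans, and its cells are specified by the basic helix-loop-helix factor scleraxis (SCX) and the homeobox factor mohawk (MKX). Tenomodulin (TNMD) is the classical marker of differentiated tendon cells, and several of the other genes were first described in cartilage, although tendon, ligament and muscle connective tissue also express them. A whole EDL muscle carries tendon at both ends and connective tissue sheaths, so that RNA of these genes is measured along with that of the fibres.

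The muscle label was checked against 10 muscle fibre genes, which were all above 3 RPKM (reads per kilobase of exon, scaled to the mapped reads of the library) on average in each group of day 14 and summed to between 57203 and 119774 RPKM in single mice. The 10 genes of interest summed to 673 to 917 RPKM in Ctrl mice, 630 to 800 RPKM in OVA mice and 330 to 517 RPKM in EAE mice on that day. Of 20 other cartilage genes, 8 were under 0.5 RPKM in every mouse. On day 14, 5 of the 20 had a mean above 3 RPKM in Ctrl, 4 in OVA and 3 in EAE mice. Of 6 bone cell markers, 4 were under 0.5 RPKM in every mouse and 1 had a mean above 3 RPKM. The label cartilage-like is used for the genes, and the presence of cartilage in the tissue was not tested. Reads per library, estimated from the value of single reads, ranged from 17.9M to 31.1M with a median of 21.2M, and the deepest library was replicate 3 of EAE on day 14. The lowest value of any of the 9 genes above the expression limit corresponded to about 100 reads (TNMD in replicate 2 of EAE on day 14), and that of MKX to about 49 reads. In whole muscle, fewer cells of a type and less RNA per cell cannot be told apart.

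Scleraxis binds the E-box, written CANNTG, and because SCX moved opposite to the other genes the 250 bases before the start given in the promoter table were taken from RefSeq (GRCm38.p6) for the 7 genes that matched in the promoter table: FMOD, CILP2, CILP, KERA, CHAD, THBS4 and TNMD. For 6 of them this is the outermost start of the gene, and for KERA it lies 243 bases inside the gene. Capitals mark CANNTG, a motif that reads the same on both strands. The promoters of FMOD (chr1:134037004-134037253, plus strand), CILP2 (chr8:69887393-69887642, minus strand), CHAD (chr11:94564797-94565046, plus strand) and TNMD (chrX:133850758-133851007, plus strand) are shown 5′ to 3′, as some of those of genes with clear changes on day 14. That of KERA, which also changed clearly, held no CANNTG and is not shown.
FMOD: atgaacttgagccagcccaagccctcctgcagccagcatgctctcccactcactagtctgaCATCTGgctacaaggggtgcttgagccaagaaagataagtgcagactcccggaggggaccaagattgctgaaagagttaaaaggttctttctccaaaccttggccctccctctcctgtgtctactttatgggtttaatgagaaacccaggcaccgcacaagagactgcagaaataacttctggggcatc
CILP2: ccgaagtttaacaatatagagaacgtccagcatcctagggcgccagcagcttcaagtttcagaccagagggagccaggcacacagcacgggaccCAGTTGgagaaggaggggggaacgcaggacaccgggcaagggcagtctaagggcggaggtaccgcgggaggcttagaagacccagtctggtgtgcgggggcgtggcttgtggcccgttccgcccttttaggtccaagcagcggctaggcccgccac
CHAD: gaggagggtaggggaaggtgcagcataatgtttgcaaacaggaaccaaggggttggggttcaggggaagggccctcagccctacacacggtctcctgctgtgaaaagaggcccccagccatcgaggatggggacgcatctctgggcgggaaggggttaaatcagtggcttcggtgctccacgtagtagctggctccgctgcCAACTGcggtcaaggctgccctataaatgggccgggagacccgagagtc
TNMD: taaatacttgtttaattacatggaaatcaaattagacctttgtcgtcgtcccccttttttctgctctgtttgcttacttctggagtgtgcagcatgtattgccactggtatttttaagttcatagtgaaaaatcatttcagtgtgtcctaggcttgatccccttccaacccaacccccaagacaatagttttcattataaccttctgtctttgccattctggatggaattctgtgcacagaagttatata
CANNTG was present in 5 of the 7 promoters, and 66.2% of the 32851 mouse promoters of the same length held it. CATCTG, a form of CANNTG searched on both strands, occurred in 1 of the 7 (FMOD, 189 bases before the start) and in 14.4% of all promoters. The letters TATAAA, searched on both strands, occurred in 1 of the 7 (CHAD) and in 12.4% of all promoters. These matches describe letters only, and the share with an E-box was near that of all promoters.

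On day 14 the EAE mice had lower levels of 7 of the 9 genes tested against Ctrl, namely TNMD, FMOD, KERA, CHAD, COMP, THBS4 and CILP2, and a higher level of 1, SCX. In the same comparison 11.8% of all genes tested were called lower and 14.6% higher. Against OVA mice the same 7 genes were called lower and SCX higher, beside 9.28% of all genes called lower and 11% called higher. Genes were tested with limma on log2(RPKM + 0.1), which slightly understates changes of low genes, and a call needed more than a 1.5-fold difference at an adjusted p under 0.05 (Benjamini-Hochberg). The median log2 fold change of the 9 genes in EAE vs Ctrl was -1.53, and that of all genes was 0.11. Both comparisons use the same EAE mice. MKX had no group mean above 3 RPKM and was therefore not among the genes tested.

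SCX, the tendon lineage factor, measured 20.2, 15.1, 11.6, 15.9 and 11.9 RPKM in the 5 Ctrl mice of day 14 (replicates 1 to 5). In OVA mice it measured 18.4, 11.5, 9.52, 11.4 and 15.8 RPKM. In EAE mice it measured 166, 83.9, 37.3, 35.8 and 56.3 RPKM. Every EAE mouse thus lay above every Ctrl and OVA mouse. Replicate 1 was the highest mouse of each group of day 14, and in EAE it was far above the others. Over expressed genes, the replicate 1 mice of day 14 varied together about their group means (r from 0.51 to 0.70). What they shared was not tested. The level in EAE was 4.34-fold that in Ctrl (log2 fold change 2.12 ± 0.34 SE, limma adjusted p = 0.000153) and 4.90-fold that in OVA (2.29 ± 0.34, limma adjusted p = 9.13e-05). Ordered by mean ± SD (n = 5), SCX was highest in EAE on day 14 (76.0 ± 54.2 RPKM), then Ctrl (14.9 ± 3.49) and OVA (13.3 ± 3.67) on day 14, which did not differ beyond their spread, and then EAE (9.33 ± 1.62), Ctrl (8.41 ± 1.12) and OVA (8.33 ± 1.60) on day 40, which overlapped one another.

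SCX (chr15:76457411-76459468, plus strand, GRCm38) lies inside BOP1, a ribosome biogenesis gene on the other strand, and their exons do not overlap. BOP1, singled out after its values were seen, was also higher in EAE on day 14, with 22.7 to 37.3 RPKM against 10.9 to 13.4 RPKM in Ctrl (log2 fold change 1.34 ± 0.13 SE, limma adjusted p = 3.06e-06). The ratio of SCX to BOP1 was 1.39 to 4.49 in the EAE mice, 0.99 to 1.85 in Ctrl mice and 0.83 to 1.45 in OVA mice of day 14. SCX exceeded BOP1 in every EAE mouse of that day. It also did so in Ctrl replicates 1, 2, 4 and 5 and OVA replicates 1, 2 and 5, and the ratios overlapped between the groups. The library kit keeps the strand, but whether it was used in counting is not given in the sources used here, and the part of BOP1 reads in the SCX values was not tested. CHAD (chr11:94565047-94569127, plus strand) likewise lies inside ACSF2 on the other strand without shared exons.

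MKX, the other tendon transcription factor, was expressed far below SCX. It measured 1.63 to 2.77 RPKM in Ctrl, 1.37 to 1.82 RPKM in OVA and 0.688 to 1.45 RPKM in EAE mice on day 14, so that the EAE mice lay below all Ctrl mice but overlapped the OVA mice. With genes above 1 RPKM admitted to the test, MKX was lower in EAE than in Ctrl (log2 fold change -0.96 ± 0.19 SE, limma adjusted p = 0.000914) and OVA (-0.64 ± 0.19, limma adjusted p = 0.0162). The measured levels of the 2 tendon factors therefore moved in opposite directions at the peak of disease. MKX was below the main expression limit, and the part of BOP1 reads in the SCX values was not tested.

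TNMD, a membrane protein of mature tendon cells, fell in EAE mice on day 14 against both control groups. It measured 35.9, 63.1, 33.9, 56.1 and 46.3 RPKM in Ctrl and 47.5, 23.2, 30.6, 35.6 and 34.4 RPKM in OVA mice of day 14. In EAE mice it measured 6.91, 3.78, 12.2, 6.30 and 5.04 RPKM, all below the lowest mouse of either control group. The level was 7.13-fold lower in EAE than in Ctrl (log2 fold change -2.83 ± 0.27 SE, limma adjusted p = 1.92e-06) and 5.21-fold lower than in OVA (-2.38 ± 0.27, limma adjusted p = 1.01e-05). The ratio of SCX to TNMD was 3.07 to 24.1 in the EAE mice of day 14, 0.24 to 0.56 in Ctrl mice and 0.31 to 0.50 in OVA mice, and it was 0.15 to 0.37 over the 3 groups of day 40.

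**Figure D1:**
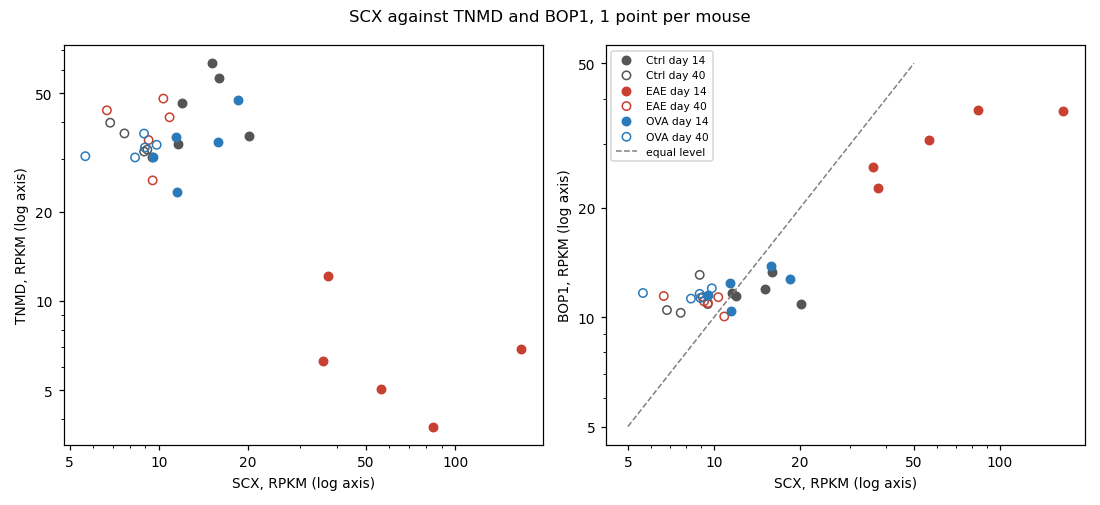
Level of SCX (x axis, RPKM, log axis) against TNMD (left) and BOP1 (right; y axes, RPKM, log axes), with 1 point per mouse, filled for day 14 and open for day 40, and a dashed line of equal level. The 5 EAE mice of day 14 stand apart with SCX between 35.8 and 166 RPKM and TNMD at or below 12.2 RPKM, and their BOP1 values are above those of all other mice.

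FMOD (fibromodulin), a small leucine-rich proteoglycan that binds collagen and shapes fibrils, was more abundant than KERA and CHAD. It measured 206 to 323 RPKM in Ctrl, 186 to 264 RPKM in OVA and 71.2 to 125 RPKM in EAE mice on day 14, with no overlap between EAE and either control group (log2 fold change to Ctrl -1.53 ± 0.17 SE, limma adjusted p = 6.61e-06). KERA (keratocan), a keratan sulphate proteoglycan best known from the cornea, measured 25.2 to 56.6, 19.2 to 35.9 and 7.16 to 15.5 RPKM in Ctrl, OVA and EAE mice (-1.95 ± 0.25, limma adjusted p = 2.30e-05). CHAD (chondroadherin), a cell-binding protein of cartilage matrix, measured 72.3 to 95.4, 52.3 to 79.9 and 17.0 to 35.5 RPKM in the same order (-1.78 ± 0.18, limma adjusted p = 4.31e-06). All 3 were separated in EAE from both control groups. The log2 fold changes to OVA were -1.33 ± 0.17 for FMOD, -1.53 ± 0.25 for KERA and -1.41 ± 0.18 for CHAD.

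The 2 pentameric glycoproteins differed in how far they moved. COMP, which bridges collagen and other matrix proteins, measured 70.2 to 103 RPKM in Ctrl, 65.6 to 82.1 RPKM in OVA and 22.7 to 50.5 RPKM in EAE mice on day 14, without overlap (log2 fold change to Ctrl -1.28 ± 0.18 SE, limma adjusted p = 6.02e-05, and to OVA -1.09 ± 0.18). THBS4, a thrombospondin of tendon and muscle matrix, measured 152, 210, 218, 224 and 230 RPKM in Ctrl and 97.2, 97.1, 208, 180 and 110 RPKM in EAE mice. Replicates 3 and 4 of EAE lay within the range of Ctrl. The fall of THBS4 was 1.56-fold against Ctrl (-0.64 ± 0.20, limma adjusted p = 0.0157) and 1.66-fold against OVA (-0.73 ± 0.20, limma adjusted p = 0.00940). Against Ctrl its call rested close to the fold limit, since without EAE replicate 1, 2 or 5 the log2 fold change was -0.54, -0.54 or -0.58, under the limit.

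The cartilage intermediate layer proteins, related secreted matrix proteins, also differed in how far they moved. CILP2 measured 41.6, 42.8, 36.2, 53.9 and 39.6 RPKM in Ctrl and 32.3, 10.3, 19.4, 27.2 and 23.3 RPKM in OVA mice of day 14. In EAE mice it measured 4.25, 3.87, 6.49, 5.72 and 4.09 RPKM. The 3 groups did not overlap, and EAE was 8.71-fold lower than Ctrl (log2 fold change -3.12 ± 0.24 SE, limma adjusted p = 5.11e-07) and 4.32-fold lower than OVA (-2.11 ± 0.24, limma adjusted p = 1.22e-05). CILP measured 23.0 to 33.9 RPKM in Ctrl, 20.2 to 28.5 RPKM in OVA and 20.7 to 25.0 RPKM in EAE mice, with overlap of all groups. Its difference from Ctrl of -0.30 ± 0.12 (log2) had a limma adjusted p of 0.0449 but missed the fold limit, and that to OVA was -0.21 ± 0.12 (limma adjusted p = 0.184).

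**Figure D2:**
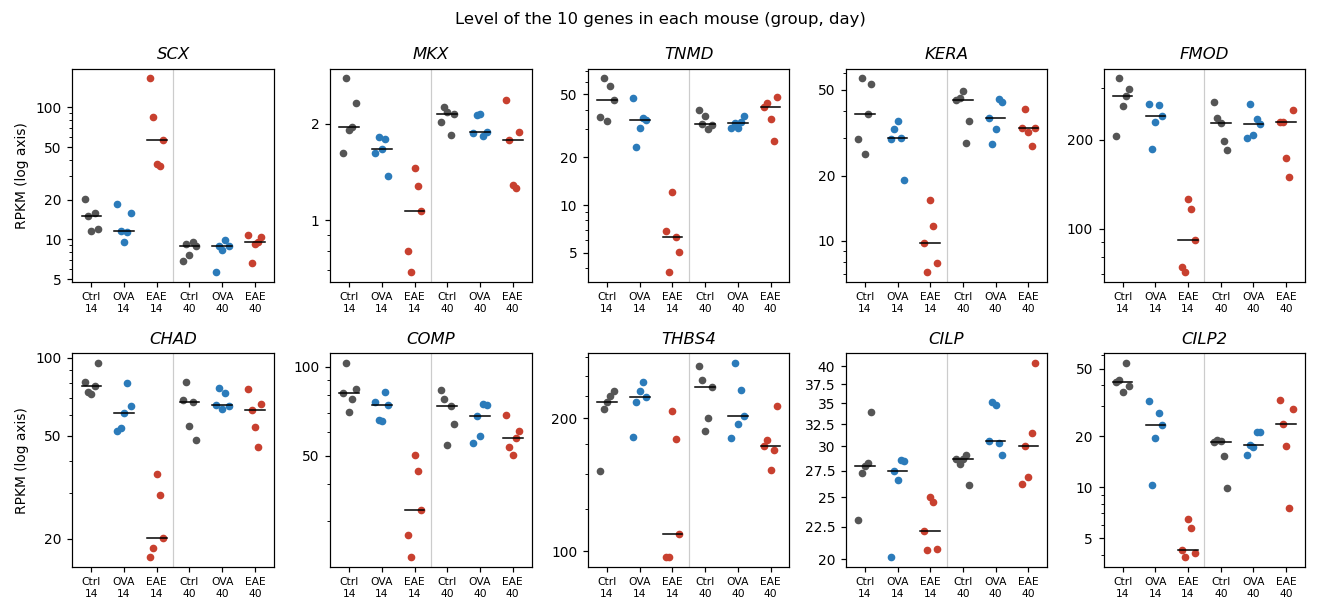
Level of each of the 10 genes (y axis, RPKM, log axis, scaled per gene) in every mouse of the 6 groups (x axis, group and day), with a line at the group median. On day 14 the EAE mice lie above all controls for SCX and below all Ctrl and OVA mice for TNMD, KERA, FMOD, CHAD, COMP and CILP2. On day 40 the groups overlap for all 10 genes, except that CILP was higher in every OVA mouse than in every Ctrl mouse. The lowest OVA mouse had 29.05 RPKM and the highest Ctrl mouse 29.04 RPKM (limma adjusted p = 0.999). Of 8706 genes tested, 59 had no overlap between OVA and Ctrl on day 40.

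Counted over mice, 8 of the 10 genes had no overlap between EAE and Ctrl on day 14 (SCX above; TNMD, MKX, FMOD, COMP, CHAD, CILP2 and KERA below), where 32.2% of all genes tested had none. Between EAE and OVA 7 had none, with MKX now overlapping, beside 26.2% of all genes tested. OVA immunization alone gave no called gene of the 9 on day 14, where 0.142% of all genes were called. The largest difference between OVA and Ctrl was that of CILP2, at -1.01 ± 0.24 SE on the log2 scale (limma adjusted p = 0.166, unadjusted p = 0.000706). Every OVA mouse was below every Ctrl mouse for CILP2, where 228 of 8471 genes tested had no overlap between these groups. TNMD (-0.45 ± 0.27), KERA (-0.42 ± 0.25) and CHAD (-0.37 ± 0.18) also had lower means in OVA, with limma adjusted p of 0.611, 0.611 and 0.552.

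**Figure D3:**
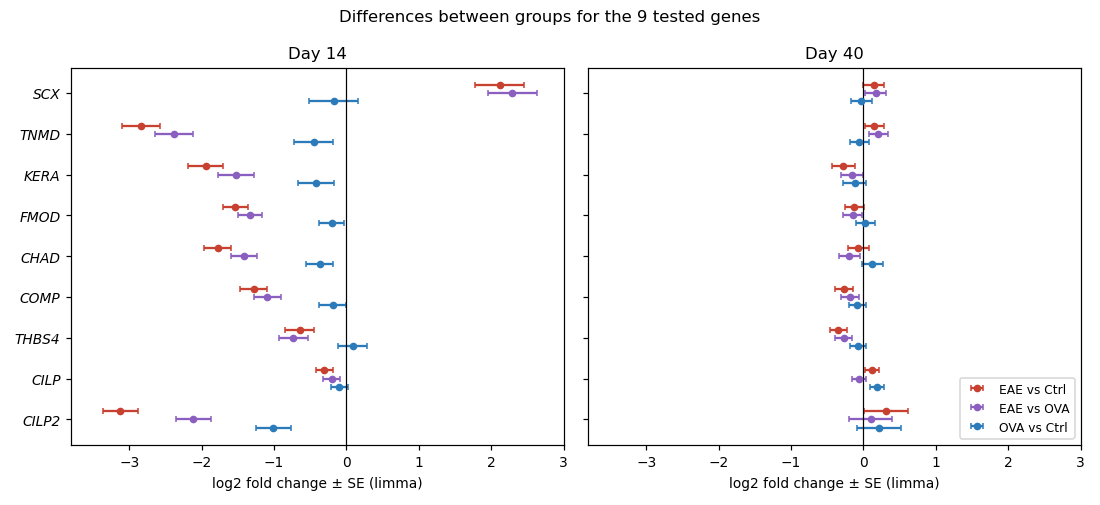
Log2 fold change ± SE from limma (x axis) for the 9 tested genes (y axis) in the 3 comparisons of day 14 (left) and day 40 (right). On day 14 the EAE comparisons spread from -3.12 for CILP2 to 2.29 for SCX, and on day 40 all values lie between -0.35 and 0.31.

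Single EAE mice of day 14 did not move to the same extent. Relative to the Ctrl mean, replicate 3 kept the highest level of all 9 genes other than SCX, for example 45.9% for FMOD, 60.6% for COMP and 25.9% for TNMD. Replicate 2 had the lowest level of 8 of these 9 genes, with 26.1% for FMOD, 27.3% for COMP and 8.02% for TNMD. SCX did not follow the reverse order exactly, as it was highest in replicates 1 (1115% of the Ctrl mean) and 2 (562%) and lowest in replicates 4 (240%) and 3 (250%). Replicate 3 was also the most deeply sequenced library, and the part of depth in this order was not tested.

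**Figure D4:**
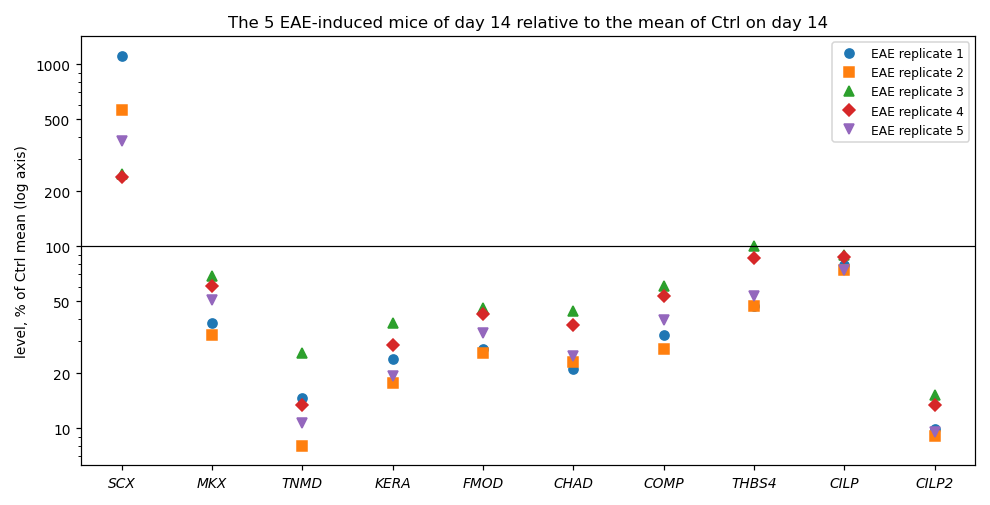
Level of each of the 10 genes in the 5 EAE mice of day 14, as percent of the Ctrl mean of that day (y axis, log axis), with 1 symbol per mouse and a line at 100%. Replicate 3 is the highest mouse for every gene except SCX, for which replicate 1 reaches 1115%.

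On day 40 none of the 9 genes tested was called in EAE vs Ctrl (0.46% of all genes called), EAE vs OVA (0.209%) or OVA vs Ctrl (0%, with 272 of 8706 genes at an unadjusted p under 0.05 by limma). TNMD measured 25.5 to 48.0 RPKM and CILP2 7.50 to 32.6 RPKM in EAE mice, with Ctrl mice at 30.4 to 39.8 and 9.88 to 19.1 RPKM. SCX measured 6.67 to 10.9 RPKM in EAE and 6.85 to 9.51 RPKM in Ctrl mice. The difference nearest to the threshold was that of THBS4 in EAE vs Ctrl (log2 fold change -0.35 ± 0.12 SE, limma adjusted p = 0.0883). CILP2 varied most within a group, with a highest EAE mouse at 4.35 times the lowest.

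The change of the EAE effect from day 14 to day 40 was tested as an interaction over all 30 mice. Against Ctrl, 8 of the 9 genes passed (48.6% of all genes passed). The log2 fold change was higher on day 40 than on day 14 for TNMD, FMOD, COMP, CHAD, CILP, CILP2 and KERA and lower for SCX. These effects were smaller in size on day 40, when the 9 genes lay between -0.35 (THBS4) and 0.31 (CILP2) in EAE vs Ctrl. Against OVA, 7 passed (35.1% of all genes), CILP no longer among them. THBS4 passed in neither (limma adjusted p = 0.311 and 0.134), although without EAE replicate 3 of day 14 its interaction against OVA was 0.63 (limma adjusted p = 0.0238). The CILP interaction against Ctrl (0.43, limma adjusted p = 0.0243) was lost without Ctrl replicate 5 of day 14 (0.36) or EAE replicate 5 of day 40 (0.33). No gene of the 9 passed for OVA vs Ctrl, nor did any of the 8848 genes tested by limma, of which 823 had an unadjusted p under 0.05.

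Within the EAE groups, 6 genes were called higher on day 40 than on day 14 (TNMD, FMOD, COMP, CHAD, CILP2 and KERA), beside 8.36% of all genes, and SCX was called lower, beside 12.7%. TNMD was 5.91-fold higher (log2 fold change 2.56 ± 0.22 SE, limma adjusted p = 4.48e-10) and SCX 6.87-fold lower (-2.78 ± 0.28, limma adjusted p = 4.69e-09). Ctrl mice also differed between the days, with CILP2 (-1.42 ± 0.29, limma adjusted p = 0.00224) and SCX (-0.80 ± 0.28, limma adjusted p = 0.0302) called lower on day 40, beside 4.35% of all genes called lower. The SCX call was lost without Ctrl replicate 1 or 2 of day 14 or replicate 1 or 3 of day 40 (adjusted p from 0.0514 to 0.108). OVA mice had no called gene of the 9 between the days (3.97% of all genes called). Without EAE replicate 3 of day 14, THBS4 was also called higher in EAE on day 40 (0.60, limma adjusted p = 0.00256, against 0.43 with it). Different mice were sampled on the 2 days, so age, time after immunization and collection day cannot be told apart.

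Other genes of tendon and matrix were counted by list, beside 11.8% of all genes called lower and 14.6% called higher in EAE vs Ctrl on day 14. Several lists held few tested genes. Of 14 other tendon genes tested in EAE vs Ctrl on day 14, 12 were lower and 1 was higher, with a median log2 fold change of -1.18. The type I collagen chains COL1A1 (-3.77 ± 0.33 SE) and COL1A2 (-3.23 ± 0.34) fell most, and CLEC11A fell by 2.28. The higher gene was EGR1, an early response factor also used in tendon (0.94 ± 0.23, limma adjusted p = 0.00339), named after its value was seen. Of 5 other cartilage genes tested, 3 were lower (COL11A1, -2.11; COL11A2, -2.05; MATN4, -1.79) and SOX6, also named after its value was seen and also known from muscle fibres, was higher (0.64). Of 8 other small leucine-rich proteoglycans 4 were lower and 0 higher (median -0.56), with LUM at -0.71, DCN at -0.70 and BGN at -0.63, less than FMOD and KERA in value. Of the 3 other thrombospondins 1 was lower (THBS3, -1.91). Of 6 genes of the junction of muscle and tendon, 1 was lower (COL22A1, -1.20), and the adhesion genes VCL (0.73) and ITGA7 (0.65) were higher. Calls near the limits rested on single mice: VCL was lost without Ctrl replicate 1 (0.56), SOX6 without Ctrl replicate 1 (0.56) or EAE replicate 2 (0.55) or 4 (0.57), and BGN without Ctrl replicate 2 (-0.54) or 5 (-0.56) or EAE replicate 5 (-0.55). Against OVA on day 14, 9 of 13 other tendon genes were called lower and 1 higher, beside 9.28% and 11% of all genes. Called lower were 2 of 4 other cartilage genes, 3 of 8 other small leucine-rich proteoglycans and 1 of 3 other thrombospondins. Of the 6 junction genes, 1 was lower and 1 higher. VCL (0.52, limma adjusted p = 0.0579), SOX6 (0.54, limma adjusted p = 0.0511) and DCN (-0.55, under the fold limit) were not called against OVA.

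Markers of other cells differed in how many were called lower on day 14. Of 11 markers of fibroblasts and fibro-adipogenic cells, 9 were lower in EAE than in Ctrl and 0 higher (median -0.97), among them PI16 (-2.28), MFAP5 (-1.57) and FBN1 (-1.56). Their sum was 1260 to 1531 RPKM in Ctrl, 848 to 1179 in OVA and 609 to 853 in EAE mice. Called lower were also 4 of 8 macrophage markers (median -0.60), 3 of 8 endothelial markers (-0.45), 1 of 5 adipocyte markers (-0.32), 1 of 1 bone marker (-0.70), 2 of 10 muscle fibre genes (-0.24) and 0 of 5 Schwann cell markers (-0.38), with none called higher in these lists. Of all genes tested in EAE vs Ctrl, 11.8% were called lower. The ALPL call, the only bone marker tested, was lost without Ctrl replicate 3, 4 or 5 or EAE replicate 1 or 5 (log2 fold change -0.65 to -0.62, limma adjusted p from 0.0515 to 0.0584). Of the endothelial calls, EMCN fell under the fold limit without Ctrl replicate 3 (-0.54) or EAE replicate 4 (-0.57) and CLDN5 without Ctrl replicate 1 (-0.58). Against OVA on day 14, 7 of 11 markers of fibroblasts and fibro-adipogenic cells were called lower, beside 9.28% of all genes. So were 4 of 8 macrophage, 2 of 8 endothelial and 2 of 5 adipocyte markers and 2 of 10 muscle fibre genes. CLDN5 was not called against OVA (-0.37, limma adjusted p = 0.164). The part of cell number in the values of the 10 genes was not tested. On day 40 no gene of any of these lists was called in EAE vs Ctrl.

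**Figure D5:**
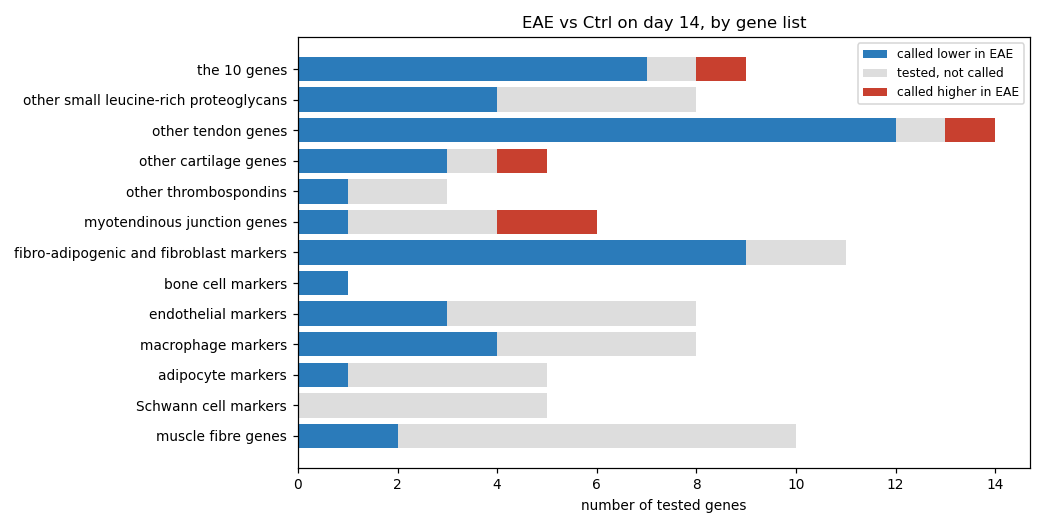
Number of genes tested in EAE vs Ctrl on day 14 (x axis) in each list (y axis), split into called lower, not called and called higher. The 10 genes, of which 9 were tested, have 7 lower and 1 higher, other tendon genes 12 lower and 1 higher of 14, and fibroblast markers 9 lower of 11.

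Across all 30 mice, the genes whose pattern was most like the mean of the 9 expressed members were COL16A1 (Pearson r = 0.978), COL1A1 (0.968), CPXM2 (0.955), COL1A2 (0.955) and ECRG4 (0.949), out of 8435 genes ranked, as a description of mice that fall into separate groups. COL16A1 measured 10.5 ± 2.03 RPKM in Ctrl and 3.27 ± 0.811 RPKM in EAE mice on day 14 (SD, n = 5). For SCX alone, which was looked up after the data were seen, they were MYL12B (0.977), FAM104A (0.970), HSPB1 (0.964), RANGAP1 (0.958) and CCT3 (0.956).

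After subtraction of each group's mean, the 10 genes were compared in pairs over the 30 mice, in 45 relations computed after the data were seen. Of the 36 pairs without SCX, 35 had a positive r and 21 passed a permutation test within groups after Benjamini-Hochberg adjustment (median r 0.59, and 0.38 without the 5 EAE mice of day 14). TNMD and FMOD varied together (Pearson r = 0.775, permutation p = 5e-05, adjusted p = 0.00075; Spearman rho = 0.767, permutation p = 4e-05, adjusted p = 0.0006), with r = 0.711 without the 2 mice farthest from the median of TNMD and 0.824 without the EAE mice of day 14. All 9 pairs with SCX had a negative r, from -0.60 to -0.01 (median -0.37), and 0 passed. Without the EAE mice of day 14 the SCX pairs ran from -0.34 to 0.40 (median -0.04), with TNMD (0.19), CILP2 (0.25) and COMP (0.40) positive. SCX and TNMD had r = -0.10 (permutation p = 0.767, adjusted p = 0.803; rho = 0.03, permutation p = 0.886, adjusted p = 0.906), so that within groups the opposite movement of the 2 genes was not detectable.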

How the data were processed

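Poly(A) RNA of EDL muscle from 30 mice was sequenced in paired-end reads from strand-specific libraries. The authors aligned the reads to mm10 with Subread, used featureCounts to count them per RefSeq gene model, and scaled the counts to RPKM. The deposited values are on a log2 scale, log2(RPKM + 1), with 0.0001 where a gene had no read. The scale is not stated and was read from the values: RPKM times exon kilobases, summed over genes, came to 1.11M to 1.14M on this scale, and to 0.123M to 0.145M if the values were RPKM. The design had been written for RPKM, so values were converted back. All 30 value columns matched a sample label.

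Groups followed the sample titles. limma 3.58.1 (R 4.3.3; lmFit and eBayes with trend) was fitted to log2(RPKM + 0.1), jointly for the 15 mice of each day, and for all 30 mice where days were compared. Genes with a mean above 3 RPKM in a compared group were tested, and adjusted p-values (Benjamini-Hochberg) cover all genes tested. Calls needed more than a 1.5-fold difference at an adjusted p under 0.05, and interactions the adjusted p only. Within-group correlations used 100000 permutations (scipy 1.17.1). EdgeR, used by the authors, needs read counts, which were not used here. Of the genes outside the 10, at most the 3 called ones with the largest change per list were named, with exceptions stated. Alternatives were the pseudocount, filters on low values, median-of-ratios scaling, the mice in the model, a replicate block, no fold limit and leaving out each mouse. The alternatives for day 40 vs day 14, the correlations, the promoter motifs and the depth estimate were added after the data were seen. The 10 genes and all lists were chosen with earlier results of these data known. Exon lengths and coordinates came from RefSeq and GRCm38 annotation, the assembly of mm10. The limma p-values set a difference between groups against the spread between mice within the groups of the model.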

Additional observations from a re-analysis of the deposited data

Results flagged for a closer look

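In 3 of 60 sets of 5 mice tested, 1 mouse stood apart from the others by Dixon's criterion on the log2 scale, where chance gives about 1 in 20. They were CILP in OVA replicate 1 of day 14 (20.2 RPKM, lowest), CILP in Ctrl replicate 5 of day 40 (26.1 RPKM, lowest) and THBS4 in Ctrl replicate 1 of day 14 (152 RPKM, lowest).

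The effect of EAE differed between the days by the interaction test in limma. Against Ctrl, the log2 fold change of day 40 minus that of day 14 was 2.99 for TNMD, 1.41 for FMOD, 1.01 for COMP, 1.71 for CHAD, 0.43 for CILP, 3.43 for CILP2 and 1.67 for KERA, and it was -1.98 for SCX. Against OVA it was 2.59 for TNMD, 1.18 for FMOD, 0.91 for COMP, 1.22 for CHAD, 2.21 for CILP2 and 1.37 for KERA, and -2.13 for SCX. Both sets use the same EAE mice.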

How the results depend on the processing

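Of 480 counts of called genes among the 10 under the alternatives, 476 were within 1.5 times the reported count. These 476 include counts of 0 that stayed 0, as in every comparison between groups on day 40. The other 4 concern the genes called lower in Ctrl on day 40 vs day 14, 1 to 2 when single mice were left out, SCX being lost. Of 2106 values of single genes, 2070 kept direction and side of the threshold, 9 lost a call, 2 gained one (THBS4) and 25 changed sign, none of them called. Of 521 values of other named genes, 17 lost a call (6 for ALPL, 3 each for BGN, EMCN and SOX6, 1 each for CLDN5 and VCL). With median-of-ratios scaling CHAD became 0.0175 (EAE vs Ctrl, day 40), CILP 0.013 (EAE vs OVA, day 40), and CILP -0.0761 and KERA -0.0348 (Ctrl, day 40 vs day 14). When single mice were left out, the log2 fold change ran from -0.0173 to 0.156 for THBS4 (OVA vs Ctrl, day 14), -0.167 to 0.0309 for CHAD (EAE vs Ctrl, day 40), -0.0834 to 0.443 for CILP2 (EAE vs OVA, day 40), and for OVA vs Ctrl on day 40 from -0.0958 to 0.00122 for TNMD, -0.0982 to 0.105 for SCX and -0.0377 to 0.0976 for FMOD. Between the days it ran from -0.0562 to 0.0828 for CILP and -0.10 to 0.19 for KERA in Ctrl, and from -0.16 to 0.10 for TNMD and -0.114 to 0.0263 for THBS4 in OVA. The replicate block changed no call among the 10 genes. Numbers did not pair the mice throughout: of 30 same-numbered pairs (r from -0.73 to 0.70), 8 were over 0.1 and 3 mice correlated best with their own number. The replicate 1 mice of day 14 did vary together, with r = 0.61 for Ctrl and OVA, 0.51 for Ctrl and EAE and 0.70 for OVA and EAE. What these mice shared was not tested. Over all genes the block left 1 of 40 calls in EAE vs Ctrl and 0 of 18 in EAE vs OVA on day 40. On day 14, dropping the fold limit gave 2530 genes higher in EAE vs Ctrl against 1282, and 2064 against 957 in EAE vs OVA. Scaling moved the median interaction by 0.13 (Ctrl) and 0.11 (OVA), the split of higher and lower from 1487 and 2895 to 1922 and 2253, and from 993 and 2145 to 1324 and 1441. On day 40 the split moved from 6 and 34 to 10 and 12 (EAE vs Ctrl) and from 3 and 15 to 0 and 2 (EAE vs OVA), and for Ctrl between the days from 441 and 382 to 252 and 580. Without the filter on low values, EAE vs Ctrl gave 1968 genes lower on day 14 against 1036, and day 40 vs day 14 gave 927 higher in Ctrl against 441, 661 in OVA against 195 and 1643 in EAE against 728. Over the alternatives other than leaving out a mouse, the lower calls of day 40 ran from 0 to 204 in EAE vs Ctrl and from 0 to 50 in EAE vs OVA, and those of OVA vs Ctrl on day 14 from 1 to 28. Depth limits MKX most, with about 49 reads in its lowest mouse.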
